A study of Rattus norvegicus with 82 samples.

Results

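The integrated stress response was followed through 10 of its genes in rat cardiomyocytes, chosen by symbol and all present among the 17337 genes of the table. They were the transcription factors Atf4 and Ddit3, the regulators Trib3 and Sesn2, the amino acid and one-carbon enzymes Asns, Psat1, Phgdh and Mthfd2, and the secreted factors Fgf21 and Gdf15. Their NCBI gene identifiers in the table were 79255 for Atf4, 29467 for Ddit3, 246273 for Trib3, 502988 for Sesn2, 25612 for Asns, 293820 for Psat1, 58835 for Phgdh, 680308 for Mthfd2, 170580 for Fgf21 and 29455 for Gdf15. In 41 rats, cardiomyocytes were isolated from the right (RV) and from the left ventricle (LV), and their RNA gave 82 libraries in 12 groups. The rats were the first generation of a cross of Wistar Kyoto females with Lewis males and were of both sexes. A clip that did not narrow the vessel at first was placed on the pulmonary artery (pulmonary artery banding, PAB, which loads the RV) or on the aorta (aortic banding, AOB, which loads the LV), and sham-operated rats served as controls. The letter H stands for compensated hypertrophy and the letter F for decompensated heart failure. By the labels, the H groups were 11 weeks old, 7 weeks after surgery, with 7 Sham-H, 6 PAB-H and 6 AOB-H rats. The 9 Sham-F and 7 AOB-F rats were 31 weeks old, 26 weeks after surgery, whereas the 6 PAB-F rats were 28 weeks old, 22 weeks after surgery, so that age and banding cannot be told apart in the comparison of PAB-F with Sham-F. Males and females numbered 3 and 4 in Sham-H, 4 and 2 in PAB-H and 2 and 4 in AOB-H. They numbered 4 and 5 in Sham-F, 4 and 2 in PAB-F and 4 and 3 in AOB-F, so the sexes were not balanced between groups. The article gives a later age at surgery than the labels do.

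Several kinases sense stress of different kinds, among them unfolded protein in the endoplasmic reticulum (ER), lack of amino acids, haem deficiency, double-stranded RNA and mitochondrial damage, and all phosphorylate the translation initiation factor eIF2 alpha. General translation then falls, while the mRNA of Atf4 is translated more, so that ATF4 can rise as a protein without a rise of its mRNA. ATF4 and its partner CHOP, the product of Ddit3, switch on genes of amino acid supply, one-carbon metabolism and redox balance, and in heart muscle a response of this kind is known from mitochondrial disease.

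Every library is 1 ventricle of 1 rat. Within a ventricle the p-values measure the spread between rats, pooled over the groups of a fit. Where RV and LV are compared, the fit takes both libraries of a rat as independent unless the animal is a block. The totals of the libraries ran from 6675287 to 19665439 counts. The 9 markers of ventricular cardiomyocytes took a share of 4.83 to 14.3% of all counts and none was at 0 in any library, whereas the markers of endothelial cells took 0.0651 to 0.501%, those of fibroblasts 0.0149 to 0.294%, those of mural cells 0.0251 to 0.116% and those of macrophages 0.00138 to 0.0269%. Of the fibroblast markers, Col1a2 was listed at 0 in 71 libraries, while the collagen genes Col1a1 and Col3a1 were at 0 in none and had means of 1785 and 3231 normalized counts, so the zeros of Col1a2 were not read as absence. The 5 lymphocyte markers had too few counts to be tested.

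The members differed widely in abundance. On the FPKM scale, which divides by gene length, Atf4 was the highest with a mean of 117 ± 25.0 (SD, n = 82 libraries), followed by Ddit3 with 87.5 ± 36.4 and by Gdf15, a hormone that acts on the brainstem to reduce food intake, with 19.7 ± 15.6. Sesn2, a leucine sensor that restrains mTORC1, had 6.63 ± 3.45, and Trib3, a pseudokinase that binds ATF4 and damps it, 2.71 ± 1.52. Per library, Atf4 rested on 994 to 3946 raw counts and Trib3 on 6 to 144. The enzymes were low. Mthfd2, of mitochondrial folate metabolism, had 1.43 ± 1.2 FPKM, Asns, which makes asparagine, 0.777 ± 1.65, Phgdh, which opens serine synthesis, 0.687 ± 0.877, and Psat1, which carries out the next step, 0.199 ± 0.147. Fgf21, a hormone of fasting and of mitochondrial stress, stood between them with 0.270 ± 0.275. From Trib3 downwards, neighbours in this order differed by less than the larger of their SDs, as did Atf4 and Ddit3 and also Gdf15 and Sesn2. Psat1 had 0 to 24 raw counts per library. Fgf21 had 0 to 10 raw counts, was at 0 in 17 libraries and was too low to be tested, so 9 members entered the tests. Its group means of normalized counts ran from 0.504 ± 0.811 (SD, n = 6) in RV AOB-H to 4.25 ± 3.34 (SD, n = 6) in LV AOB-H, and it was called in no comparison without the filter on low counts. The smallest adjusted p there was 0.284, for RV PAB-H against RV Sham-H (1.53 on the log2 scale, SE 0.77).

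Normalized counts, which are raw counts set to the mean library size, are used in all further sentences on levels, and differences are on the log2 scale. A gene was called when its p adjusted by the Benjamini-Hochberg method over 11954 genes was under 0.05 in the quasi-likelihood test of edgeR.

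**Figure D1:**
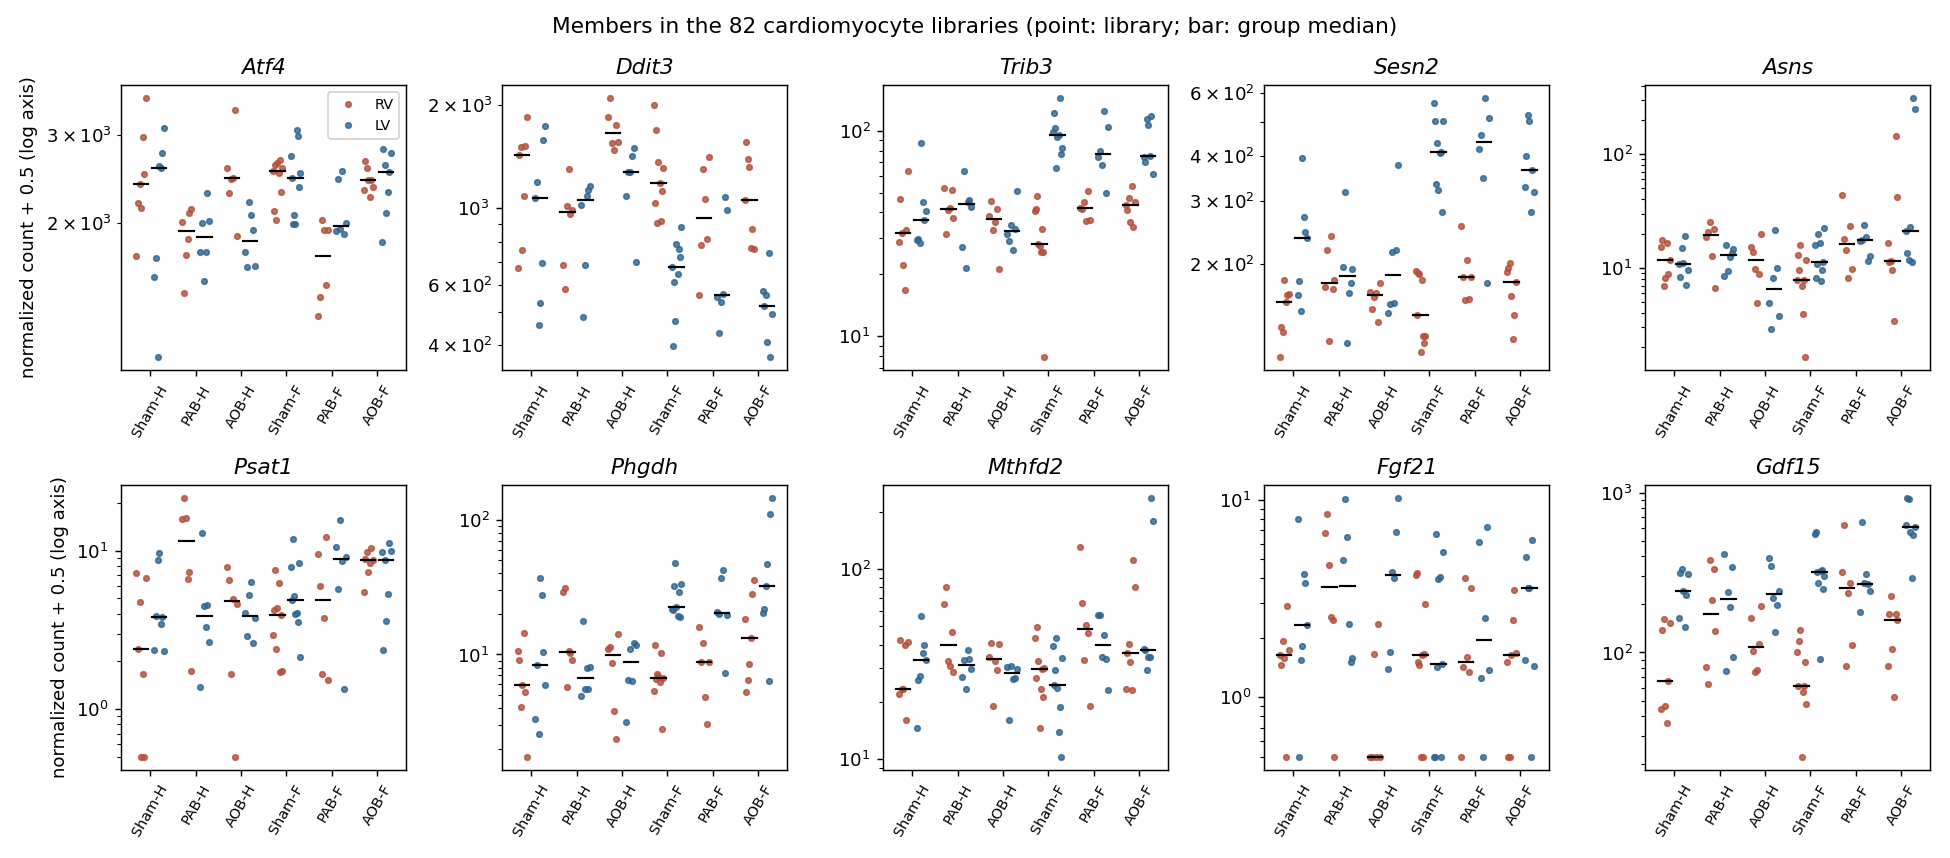
Normalized counts plus 0.5 (log axis) of each member in each library, for the RV (red) and the LV (blue) of the 6 conditions, with a bar at the group median. Trib3, Sesn2 and Phgdh sit higher in the LV than in the RV of Sham-F, Gdf15 is raised in RV PAB-F, and 2 points stand high for Asns, Mthfd2 and Phgdh in LV AOB-F.

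The group medians show how far each member ranged. Gdf15 spanned most, from 61.2 in RV Sham-F to 612 in LV AOB-F. Atf4 spanned little, from 1714 in RV PAB-F to 2572 in LV Sham-H, and Ddit3 ran from 519 in LV AOB-F to 1657 in RV AOB-H. Trib3 and Sesn2 had their highest medians in the LV of the older rats, Trib3 with 94.5 in LV Sham-F and Sesn2 with 439 in LV PAB-F, and their lowest in RV Sham-F, with 27.7 and 144. Among the enzymes Asns ran from 6.04 in LV AOB-H to 20.8 in LV AOB-F, Phgdh from 5.44 in RV Sham-H to 32 in LV AOB-F, Mthfd2 from 22.8 in RV Sham-H to 47.8 in RV PAB-F and Psat1 from 1.91 in RV Sham-H to 11.1 in RV PAB-H.

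In the failing RV upon PAB, Gdf15 was higher and Atf4 lower than in RV Sham-F, and the other members did not pass the test. This makes 2 of 9 members called, where 11.1% of all genes tested were called. Gdf15 ranged from 21.8 over a median of 61.2 to 138 in RV Sham-F and from 81.5 over 253 to 630 in RV PAB-F. Of the 6 PAB-F libraries 4 exceeded every sham library, and the groups overlapped. The difference was 1.83 (SE 0.38, adjusted p = 0.000615), from a mean of 76.6 ± 37 (SD, n = 9) to 274 ± 197 (SD, n = 6). Without replicate 2, which had the highest value, it was 1.39 (adjusted p = 0.0184).

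Atf4 moved the other way. It ranged from 2028 over a median of 2535 to 2676 in RV Sham-F and from 1295 over 1714 to 2027 in RV PAB-F. All 6 banded libraries lay below all 9 sham libraries, although the highest and the lowest of them nearly met, and 2.71% of all genes tested had groups that did not overlap. The difference was -0.54 (SE 0.14, adjusted p = 0.00752), and -0.47 (adjusted p = 0.0605) without PAB-F replicate 1. In bulk RNA, fewer cells of a type and less RNA per cell cannot be told apart.

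Ddit3, the other transcription factor, had a difference of -0.38 (adjusted p = 0.295), whereas the differences of the remaining 6 members lay between 0.32 and 1.18 and none was called. Mthfd2 came closest, with 14.1, 29.2 and 48.8 as lowest, median and highest in RV Sham-F and 18.5, 47.8 and 130 in RV PAB-F (0.93, adjusted p = 0.0818, and 1.11, adjusted p = 0.0372, without PAB-F replicate 6). For Asns the difference was 1.18 (SE 0.58, adjusted p = 0.172), and 3 of the 6 banded libraries were above every sham library. The median over the 9 members was 0.445, against 0.016 over all genes.

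Markers of other cells moved with this comparison. Of the fibroblast markers 3 of 7 were called higher, of the macrophage markers 3 of 8, of the atrial markers, which include the natriuretic peptide gene Nppa, 2 of 4, of the mural markers 2 of 7 and of the endothelial markers 1 of 7, and none was lower. No marker of ventricular cardiomyocytes of 9 was called. The summed share of the fibroblast markers was 0.0149 to 0.0501% in RV Sham-F and 0.0273 to 0.188% in RV PAB-F, that of the macrophage markers 0.00138 to 0.00450% and 0.00238 to 0.0171%, and that of the atrial markers 0.00218 to 0.00666% and 0.00758 to 0.859%. PAB-F replicate 1, which had the lowest Atf4, held the highest fibroblast and atrial shares of RV PAB-F. Its share of ventricular cardiomyocyte markers was the lowest of that group (7.36%). Of the immediate early genes, which react to cell isolation among other stimuli, 2 of 8 were lower, with a summed share of 0.202 to 0.265% in RV Sham-F and 0.121 to 0.241% in RV PAB-F. Their part in the result was not tested.

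Of the other genes of the pathway 71 were tested in 9 lists, and 3 were higher and 2 lower in RV PAB-F, a share of 7.04% against the 11.1% of all genes. The 4 kinases of eIF2 alpha and the 10 subunits of eIF2, eIF2B and the eIF2 alpha phosphatases held no called gene. Slc7a1, a carrier of arginine and lysine, rose by 0.76 (SE 0.17, adjusted p = 0.00219), with 266 to 374 in RV Sham-F and 299 to 841 in RV PAB-F. Among the receptors of GDF15 and FGF21, Ret, the signalling partner of the GDF15 receptor, rose by 1.13 (SE 0.30, adjusted p = 0.00924) and Fgfr3 by 0.75 (SE 0.26, adjusted p = 0.0445). Lower were Stc2, a secreted glycoprotein (-0.69, SE 0.17, adjusted p = 0.00395), and the ER chaperone Hyou1 (-0.39, SE 0.13, adjusted p = 0.0321).

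**Figure D2:**
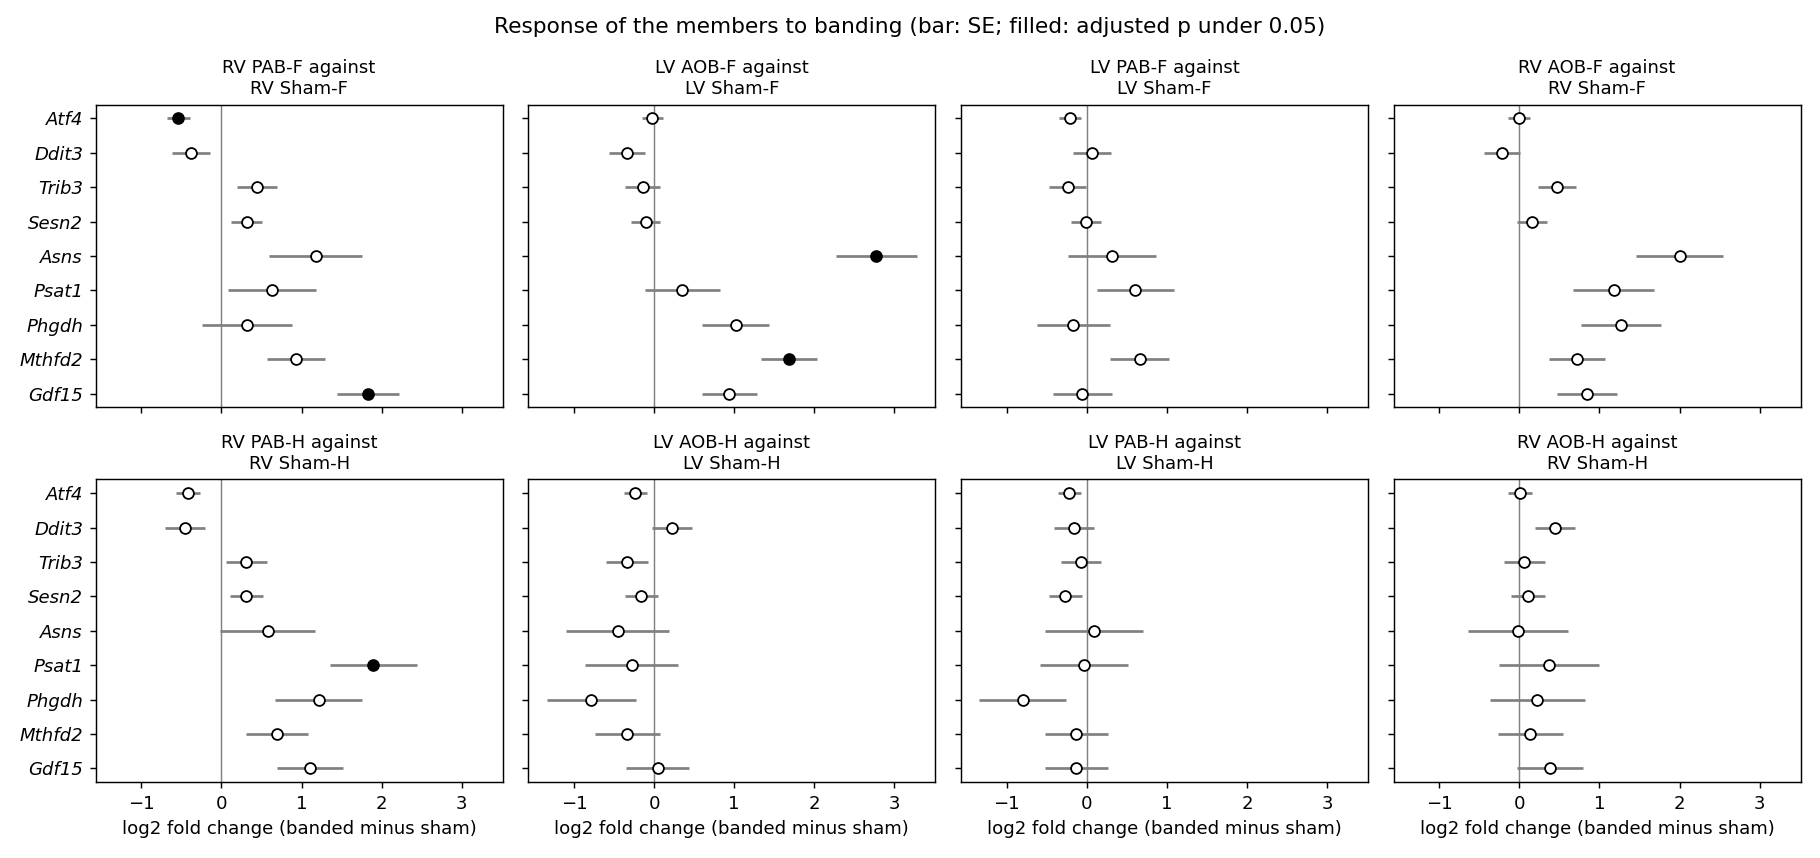
Log2 fold change of the 9 tested members in the 8 comparisons of a banded group with the sham group of its ventricle and stage, with SE bars from the edgeR fit. Filled points passed an adjusted p of 0.05, which holds for Atf4 and Gdf15 in RV PAB-F, Asns and Mthfd2 in LV AOB-F and Psat1 in RV PAB-H.

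At the compensated stage, 1 of 9 members was called in the RV upon PAB, against 4.50% of all genes. Psat1 had 0 to 6.76 (median 1.91) in RV Sham-H and 1.23 to 21.2 (median 11.1) in RV PAB-H, which are 0 to 6 and 1 to 24 raw counts, and 2 sham libraries were at 0. Its difference was 1.90 (SE 0.54, adjusted p = 0.0309), with 4 of the 6 banded libraries above all sham libraries. The call rested on few counts and was lost without any 1 of 7 libraries (adjusted p between 0.0547 and 0.285), namely PAB-H replicates 1, 2 and 3 and Sham-H replicates 2, 4, 5 and 6. Gdf15 and Atf4 had the signs they had at failure, with 1.11 (SE 0.41, adjusted p = 0.0925) for Gdf15 and -0.41 (SE 0.15, adjusted p = 0.0799) for Atf4, and neither passed the test.

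Phgdh had 1.21 (adjusted p = 0.183) in this comparison, where replicates 1 and 2 of RV PAB-H had 28.9 and 30.9 and the other libraries of the group 5.21 to 10.2. The median over the members was 0.576 and that over all genes 0.004. All 7 fibroblast markers tested were higher in RV PAB-H, with a summed share of 0.0351 to 0.294% against 0.0237 to 0.0455% in RV Sham-H. Of the atrial markers 2 of 4 were higher, with 0.0149 to 0.0413% against 0.00190 to 0.00466%, as were 2 of 7 endothelial markers and 1 of 7 mural markers, while 1 of 8 immediate early genes was lower. Their part in the result was not tested. Of the 71 pathway genes 2.82% were called, against 4.50% of all genes. Bbc3, which encodes the pro-apoptotic protein PUMA, rose by 0.97 (SE 0.25, adjusted p = 0.0197) and Fgfr3 by 1.05 (SE 0.28, adjusted p = 0.0197). For both genes all 6 banded libraries lay above all 7 sham libraries, and of all genes tested 3.24% had groups that did not overlap.

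In the failing LV upon AOB, Asns and Mthfd2 were higher than in LV Sham-F, and the same animals were the highest for both. Here 2 of 9 members were called, and 12.9% of all genes. Asns ranged from 7.13 over a median of 10.8 to 22.1 in LV Sham-F and from 10.7 over 20.8 to 312 in LV AOB-F. Replicates 6 and 7 of AOB-F had 312 and 247, while the other 5 libraries of the group, with 10.7 to 22.3, lay within the sham range or just above it. The difference was 2.77 (SE 0.50, adjusted p = 0.000175). Mthfd2 had the same shape, with 9.80, 24.1 and 42.8 as lowest, median and highest in LV Sham-F, 237 and 178 in AOB-F replicates 6 and 7, and 28.9 to 37.4 in the other 5. Its difference was 1.68 (SE 0.35, adjusted p = 0.000926).

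The calls held without either animal and ended without both. Asns remained called without LV replicate 6 (2.02, adjusted p = 0.00863) and without LV replicate 7 (2.30, adjusted p = 0.00476), but with both animals left out, a choice made after the values were seen, the difference was 0.25 (SE 0.36, adjusted p = 0.744). For Mthfd2 the difference without both was 0.40 (SE 0.30, adjusted p = 0.465). A fit to these 2 groups alone, which takes the spread from them, gave 2.72 (adjusted p = 0.0831) for Asns and 1.64 (adjusted p = 0.0927) for Mthfd2.

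The RV of the same animals is a second sample. In RV AOB-F, Asns was at 143 and 41.1 in replicates 6 and 7 and at 2.94 to 16 in the other 5 libraries, beside 1.15 to 15.3 in RV Sham-F. Mthfd2 was at 111 and 79.9 in them and at 22.6 to 39.9 in the others. Phgdh followed, with 27.7 and 35.3 against 4.78 to 18 in the RV, and with 110 and 146 against 5.83 to 47 in the LV. Both ventricles of both animals thus held the highest Asns, Mthfd2 and Phgdh values of their group.

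Atf4, Ddit3, Trib3 and Gdf15 did not share this order. In LV AOB-F, Atf4 had 2532 and 2760 in replicates 6 and 7 and 1829 to 2818 in the others, Trib3 118 and 61.2 against 69.7 to 113, Ddit3 369 and 492 against 406 to 742, and Gdf15 543 and 612 against 292 to 928. Psat1 was by a small margin highest in this pair, with 10.6 and 9.42 beside 1.86 to 9.34 in the other 5 libraries. Replicates 5, 6 and 7 were the females of the group, and replicate 5 had 10.7 for Asns in the LV and 2.94 in the RV.

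**Figure D3:**
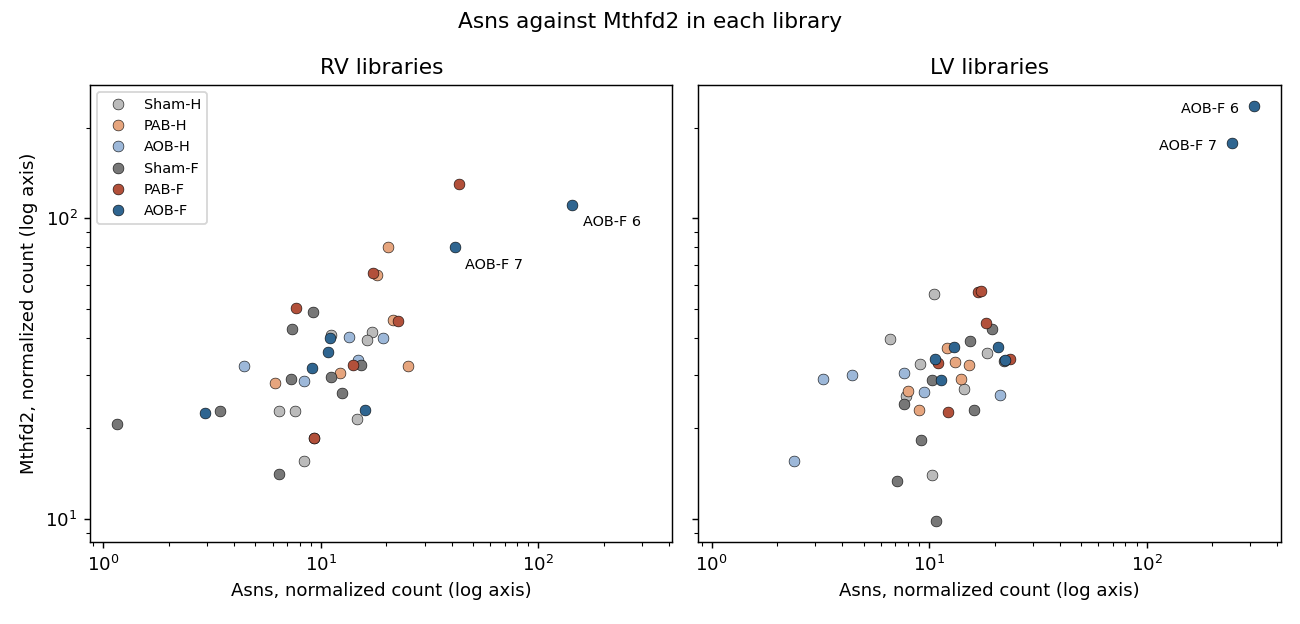
Normalized counts of Mthfd2 against Asns (both log axes) in each RV library (left) and each LV library (right), coloured by condition. The libraries of AOB-F animals 6 and 7 are named: in the LV they stand apart at 312 and 247 for Asns, and in the RV they reach 143 and 41.1.

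Asns and Mthfd2 are textbook targets of ATF4, which binds a composite C/EBP-ATF response element. The letters TGATGNAA, searched on both strands, stand for its core. They occurred in 3.98% of 33469 RefSeq promoter windows of 300 bases, each from 250 bases before to 50 after a gene start in the build GRCr8, and in 2 of the 10 members, Trib3 and Fgf21, and 9 of 64 pathway genes with a window. The 100 bases before the start of Asns (chr4:36769416-36769515, minus strand) and of Mthfd2 (chr4:117380351-117380450, minus strand) are shown because these genes moved together. The stretches of Trib3 (chr3:161275534-161275593, minus strand), Fgf21 (chr1:105221487-105221546, minus strand) and Pycr1 (chr10:106420913-106420972, minus strand), a proline synthesis enzyme that was also called in LV AOB-F, are shown because they hold a match, in capitals.
Asns: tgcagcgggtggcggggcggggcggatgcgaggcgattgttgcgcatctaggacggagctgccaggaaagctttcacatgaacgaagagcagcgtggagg
Mthfd2: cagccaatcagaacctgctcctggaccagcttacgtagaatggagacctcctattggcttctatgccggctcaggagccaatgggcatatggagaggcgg
Trib3: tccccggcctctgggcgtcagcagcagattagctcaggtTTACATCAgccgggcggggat
Fgf21: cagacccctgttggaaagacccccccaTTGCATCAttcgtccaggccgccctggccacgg
Pycr1: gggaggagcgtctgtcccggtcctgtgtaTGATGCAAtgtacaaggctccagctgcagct
Trib3 and Fgf21 hold the letters on the opposite strand, at -21 and -143, and Pycr1 on its own strand at -131. The windows of Asns, Mthfd2, Phgdh, Psat1, Atf4, Ddit3, Sesn2 and Gdf15 hold no match, which says nothing of sites outside these windows or of other spellings.

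Gdf15 also had its highest levels in LV AOB-F. The lowest, median and highest were 90.0, 317 and 564 in LV Sham-F and 292, 612 and 928 in LV AOB-F, and 4 of the 7 banded libraries exceeded all sham libraries. The difference of 0.94 (SE 0.35, adjusted p = 0.0592) missed the threshold. It was 1.08 (adjusted p = 0.0334) without replicate 5, which held the lowest value of the group, between 0.97 and 1.08 (adjusted p = 0.0496, 0.0393 and 0.0411) without LV AOB-F replicate 4 or LV Sham-F replicate 1 or 2, and 1.0 (adjusted p = 0.123) without animals 6 and 7. Phgdh had 1.02 (SE 0.42, adjusted p = 0.0946), 1.22 (adjusted p = 0.038) without LV AOB-F replicate 5 and -0.08 (adjusted p = 0.941) without animals 6 and 7. The median over the members was 0.353, against 0.038 over all genes.

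Of the 71 pathway genes 9 were higher and 1 lower in LV AOB-F, which is 14.1% and close to the 12.9% of all genes. For 6 of the 9, replicates 6 and 7 were the highest pair of the 7 libraries. Slc7a5, a carrier of large neutral amino acids, was at 900 and 1014 in them, at 136 to 208 in the other 5 and at 168 to 287 in LV Sham-F (0.92, SE 0.24, adjusted p = 0.00648). Pycr1 was at 252 and 191 in them, at 47.4 to 64.7 in the others and at 34 to 80.4 in LV Sham-F (0.73, SE 0.24, adjusted p = 0.0357). In the RV of these animals Slc7a5 was at 307 and 350 against 113 to 156, and Pycr1 at 136 and 105 against 35 to 68.8.

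Of the 10 subunits of eIF2, eIF2B and the eIF2 alpha phosphatases 3 were higher, and 2 of 15 ER unfolded protein response genes. Eif2s1, the alpha subunit of eIF2 that the kinases phosphorylate, rose by 0.68 (SE 0.20, adjusted p = 0.0156), Eif2s2 by 0.67 (SE 0.20, adjusted p = 0.0202) and Eif2b3 by 0.58 (SE 0.17, adjusted p = 0.0171). The ER stress sensor Atf6 rose by 0.45 (SE 0.11, adjusted p = 0.00505), the disulfide isomerase Pdia4 by 0.53 (SE 0.17, adjusted p = 0.0345), the glutamine carrier Slc1a5 by 0.66 (SE 0.24, adjusted p = 0.0495) and the ATF4 partner Cebpg by 0.60 (SE 0.17, adjusted p = 0.0125). RGD735029, the rat symbol of the mitochondrial stress relay Dele1, fell by 0.39 on the log2 scale (SE 0.11, adjusted p = 0.0137). For Eif2s1, Eif2b3, Atf6 and Pdia4, replicates 6 and 7 of LV AOB-F were the highest pair. Pdia4 was at 712 and 1022 in them and at most 535 in the other libraries of the group. The fit without both animals was read for the members only.

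Macrophage markers moved with LV AOB-F, with 3 of 8 called higher and a summed share of 0.00429 to 0.0170% in LV Sham-F and 0.00474 to 0.0269% in LV AOB-F. Replicates 6 and 7 had 0.0218 and 0.0225%, and replicate 2, whose Asns was at 13, had the highest share. The single markers differed in this. Csf1r was at 839 and 999 in replicates 6 and 7 of the LV and at 184 to 737 in the other 5 libraries. C1qc was at 461 and 324 in them and at 69.9 to 788 in the others. No marker of the list but Csf1r had these animals as its highest pair in the LV. In the RV the same animals held the 2 highest shares of AOB-F, with 0.00861 and 0.0112% against 0.00288 to 0.00446% in the others. The summed share of the ventricular cardiomyocyte markers was lowest in the same animals, with 4.83 and 5.07% in the LV against 7.33 to 10.5% in the other 5 libraries, and with 8.40 and 8.39% in the RV against 9.81 to 12.6%, although none of these markers was called in LV AOB-F. Of the endothelial markers 2 of 7, of the atrial markers 1 of 4 and of the mural markers 1 of 7 were higher in LV AOB-F, and no fibroblast marker of 7. Their part in the result was not tested.

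In the remaining comparisons of banded with sham rats no member was called by edgeR. In LV PAB-F 0% of all genes were called (454 at an unadjusted p under 0.05), in RV AOB-F 0.0669% (517), in LV AOB-H 0.0167% (2387), 0% (305) in LV PAB-H, and 0% (171) in the RV of AOB-H. DESeq2 called none of the members there either, and 0, 12, 35, 0 and 0 of all genes in the same order. For RV AOB-F, Asns had the largest difference of the members (2.0, SE 0.54, adjusted p = 0.233), and without animals 6 and 7 it was 0.27. Psat1 (1.18), Phgdh (1.27), Gdf15 (0.84), Mthfd2 (0.72) and Trib3 (0.47) had an adjusted p of 0.862 or more each, and the median over the members was 0.72, against 0.009 over all genes. This median is the value of Mthfd2, which like Phgdh and Asns was highest in animals 6 and 7 of this group. In LV AOB-H, Phgdh had -0.78 (adjusted p = 0.422) and Gdf15 0.04 (adjusted p = 0.962). These comparisons share their sham libraries with those above for the same ventricle and stage.

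Next, the responses of the ventricles were compared directly. For PAB at failure, RV minus LV, no member was called in the fit across groups, with 0.351% of all genes called (1538 at an unadjusted p under 0.05). The difference of Gdf15 was 1.88 (SE 0.54, adjusted p = 0.11), made of 1.83 in the RV and -0.05 in the LV. Both ventricles came from the same rats. With the animal as a block the difference was 1.73 (SE 0.36, adjusted p = 0.00603), so that Gdf15 was called there, with 349 genes in all. For AOB at failure, LV minus RV, 0% of all genes were called (1161 at an unadjusted p under 0.05) and no member, nor by DESeq2. Asns had 0.77 (SE 0.75, adjusted p = 0.731) and Mthfd2 0.96 (SE 0.50, adjusted p = 0.528).

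Without any banding the ventricles of adult rats differed in 5 of 9 members. In Sham-F, however, 74.3% of all genes were called between RV and LV, so that the members' count is not above the background. Ddit3 was higher in the RV, with 909 to 2007 (median 1188) against 396 to 884 (median 676) in the LV, a difference of 0.96 (SE 0.21, adjusted p = 4.23e-05). All other called members were higher in the LV. Sesn2 had 113 to 191 (median 144) in the RV and 278 to 562 (median 411) in the LV (-1.45, SE 0.18, adjusted p = 2.48e-11), and Trib3 7.42 to 47.8 (median 27.7) and 65.2 to 144 (median 94.5) (-1.66, SE 0.22, adjusted p = 2.26e-10).

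For Ddit3, Trib3, Sesn2 and Phgdh the libraries of the ventricles did not overlap in Sham-F, as was so for 41.8% of all genes. Phgdh had 2.30 to 11.2 (median 6.19) in the RV and 18.6 to 47.5 (median 21.9) in the LV (-2.02, SE 0.47, adjusted p = 8.51e-05). Gdf15 had 21.8 to 138 (median 61.2) and 90.0 to 564 (median 317), a difference of -2.10 (SE 0.36, adjusted p = 2.41e-07), and it overlapped through LV replicate 5 alone. Within each of the 9 animals the RV was below the LV for Gdf15, Trib3, Sesn2 and Phgdh and above it for Ddit3. Atf4, by contrast, had nearly the same level in both, with 2443 ± 236 in the RV and 2459 ± 406 in the LV (SD, n = 9; -0.01, adjusted p = 0.949).

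In the young Sham-H rats 21% of all genes and 2 of 9 members were called between the ventricles. Gdf15 was again lower in the RV, with 35.9 to 162 (median 66) against 144 to 333 (median 241), a difference of -1.41 (SE 0.39, adjusted p = 0.00861). Sesn2 had 109 to 180 (median 156) in the RV and 148 to 396 (median 235) in the LV (-0.67, SE 0.20, adjusted p = 0.0131), and -0.47 (adjusted p = 0.138) without LV Sham-H replicate 4, its highest library. For both genes the RV was below the LV in 7 of 7 animals. Trib3 was below in 4 of them and Ddit3 in 2. Markers of other cells moved with these differences, with 4 of 7 endothelial, 3 of 7 mural and 1 of 4 atrial markers lower in the RV and none higher. The endothelial share was 0.0748 to 0.107% in RV Sham-H and 0.107 to 0.234% in LV Sham-H, and the mural share 0.0260 to 0.0375% and 0.0319 to 0.0768%. No macrophage or fibroblast marker and no immediate early gene was called. Their part in the result was not tested.

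**Figure D4:**
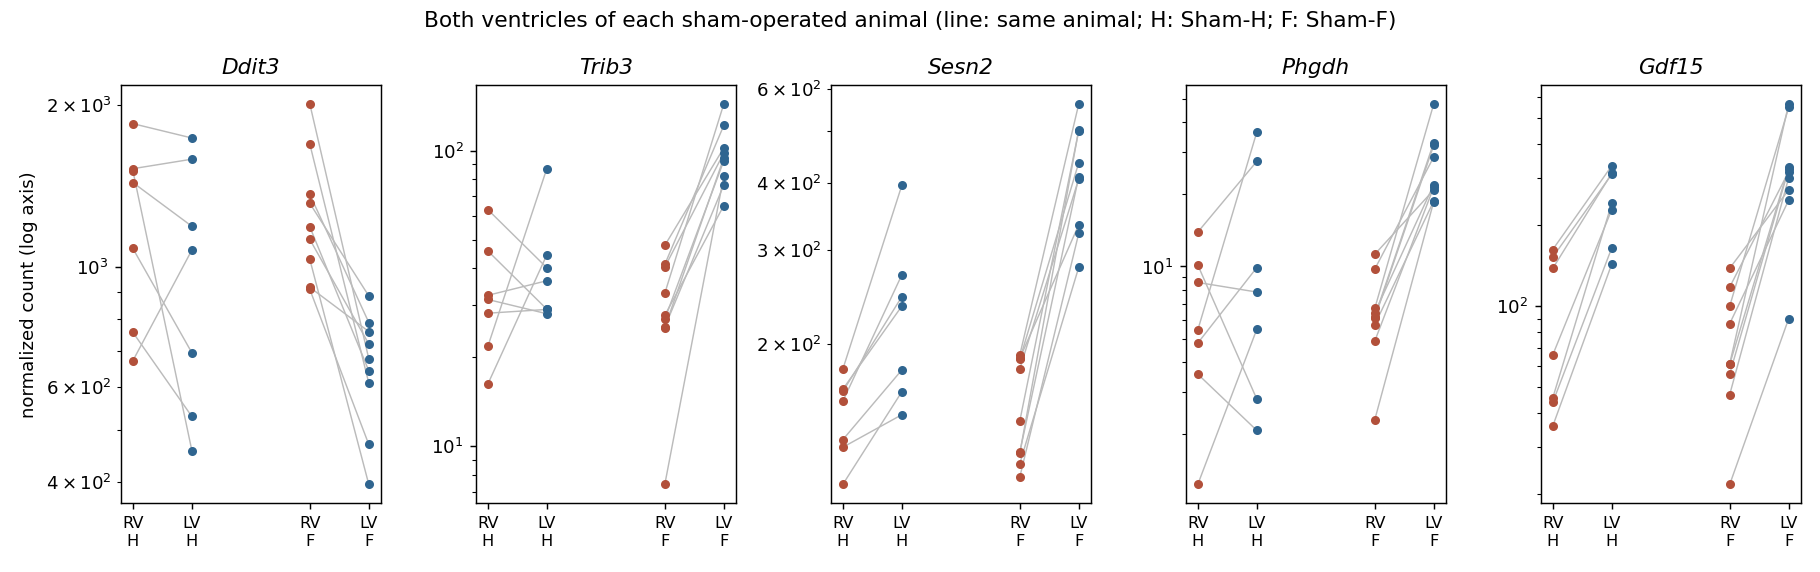
Normalized counts (log axis) of 5 members in the RV and the LV of each sham-operated rat, joined by a line, for Sham-H (7 rats) and Sham-F (9 rats). All lines of Gdf15 and Sesn2 rise from RV to LV at both stages, whereas those of Ddit3 fall in all 9 Sham-F rats.

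From Sham-H to Sham-F the LV changed and the RV did not detectably. In the RV 0.0502% of all genes and no member were called by edgeR (601 genes at an unadjusted p under 0.05), and DESeq2 called 22 genes and no member. In the LV 57.4% of all genes and 3 of 9 members were called. Trib3 rose from 28.1 to 86.9 (median 36.3) in LV Sham-H to 65.2 to 144 (median 94.5) in LV Sham-F, by 1.19 (SE 0.23, adjusted p = 1.35e-05). Sesn2 rose by 0.83 (SE 0.19, adjusted p = 0.000128), and Ddit3 fell by 0.65 on the log2 scale (SE 0.22, adjusted p = 0.0101). For Ddit3 the difference was -0.48 (adjusted p = 0.0702) without LV Sham-H replicate 7, and for Phgdh it was 0.98 (adjusted p = 0.059) with all libraries 1.48 (adjusted p = 0.00656) without LV Sham-H replicate 4 and 1.24 (adjusted p = 0.0237) without LV Sham-H replicate 5. Age, time since surgery and the handling of the libraries of a stage cannot be told apart here.

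The difference between these stage differences, RV minus LV, was called for 2 of 9 members and 41.6% of all genes. It was -1.35 (SE 0.33, adjusted p = 0.0012) for Trib3 and -0.78 (SE 0.26, adjusted p = 0.0139) for Sesn2. Ddit3 had 0.68 (SE 0.32, adjusted p = 0.0768), and it was called without any 1 of Sham-H LV replicates 3, 4 and 5 and RV replicate 7 (0.77 to 0.81).

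Markers of other cells and of the response to isolation moved in the same direction as Gdf15, Sesn2 and Trib3. In Sham-F, 5 of 8 macrophage, 5 of 7 endothelial, 5 of 7 mural and 5 of 7 fibroblast markers were lower in the RV than in the LV, as were 6 of 8 immediate early genes, while 1 endothelial marker was higher. Of the ventricular cardiomyocyte markers 5 of 9 were higher and 2 lower. The endothelial share was 0.0651 to 0.111% in RV Sham-F and 0.141 to 0.357% in LV Sham-F, the mural share 0.0251 to 0.0398% and 0.0476 to 0.0944%, the macrophage share 0.00138 to 0.00450% and 0.00429 to 0.0170% and the fibroblast share 0.0149 to 0.0501% and 0.0389 to 0.122%. The share of the immediate early genes was 0.202 to 0.265% and 0.269 to 0.587%. From LV Sham-H to LV Sham-F, 5 of 8 macrophage, 5 of 7 mural, 3 of 7 fibroblast and 2 of 4 atrial markers and 5 of 8 immediate early genes were higher, while 5 of 9 ventricular cardiomyocyte markers were lower and 2 higher, and 1 endothelial marker was lower and 1 higher. Their part in the result was not tested.

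Between the ventricles of Sham-F 26 pathway genes were higher and 28 lower in the RV, or 76.1% of the 71, close to the 74.3% of all genes. The 3 eIF2 subunits were among the former, with differences of 2.13 for Eif2s2 (SE 0.20, adjusted p = 5.11e-15), 1.94 for Eif2s1 (SE 0.19, adjusted p = 3.68e-14) and 1.57 for Eif2s3x (SE 0.22, adjusted p = 1.25e-09), as were 6 of 7 mitochondrial chaperones and stress sensors, led by Hspd1, the mitochondrial HSP60 (1.95), and Clpx (1.86). Of the kinases Eif2ak2, the sensor of double-stranded RNA, differed most (2.10, SE 0.26, adjusted p = 2.73e-11). Lower in the RV were all 5 receptors tested, led by Fgfr4 (-2.41) and Fgfr3 (-1.89), and 6 of 7 amino acid transporters, led by the glycine carrier Slc6a9 (-1.72). Pck2, the mitochondrial PEP carboxykinase, had -2.25 (SE 0.26, adjusted p = 3.84e-12), Atf5, a relative of Atf4, -1.49, and the stress gene Ddit4 -1.77.

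In Sham-H 7 pathway genes were higher and 7 lower in the RV (19.7%, against 21% of all genes), led by Hsp90b1, the chaperone GRP94 (0.94), and Bbc3 (-1.11). From LV Sham-H to LV Sham-F 21 were higher and 23 lower, which is 62% against 57.4% of all genes. Cbs, of the transsulfuration pathway, rose by 1.74 (SE 0.31, adjusted p = 5.39e-06), Fgfr4 by 1.60 and Fgfr3 by 1.54, while Eif2s2 fell by 1.46, Eif2s1 by 1.39 and Hspd1 by 1.25 on the log2 scale. The median over the members was 0.241 there, against 0.035 over all genes. For the difference between the stage differences 19 were above and 11 below 0 (42.3%, against 41.6% of all genes), led by Eif2s2 (1.65) and Fgfr4 (-1.47).

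Males and females were compared within each ventricle, with the group in the model. In the RV (21 males and 20 females) no member was called by edgeR or DESeq2, with 7.82% of all genes called (2837 at an unadjusted p under 0.05). In the LV 10% of all genes and 1 of 9 members were called, Atf4 being lower in males (-0.27, SE 0.09, adjusted p = 0.0421). Without the filter on low counts Atf4 was not called (adjusted p = 0.0589). Ddit3 (-0.40, SE 0.14, adjusted p = 0.055) and Gdf15 (0.52, SE 0.18, adjusted p = 0.0577) just missed the threshold in edgeR, and DESeq2 called both (adjusted p = 0.0379 and 0.0357). Asns had -0.85 (SE 0.36, adjusted p = 0.124), and AOB-F animals 6 and 7 were among the females. Of the pathway lists, ER unfolded protein response genes were lower in males for 7 of 15 in the RV and 3 of 15 in the LV, among them Xbp1 in the RV (-0.26, SE 0.06, adjusted p = 0.00297) and Ern1, which encodes the ER stress sensor IRE1, in the LV (-0.44, SE 0.08, adjusted p = 0.000318). Eif2s3x, which lies on the X chromosome, was lower in males in both (-0.65 in the RV and -0.57 in the LV).

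Last, the covariation of the members between animals was examined after the group means had been removed. Over 41 libraries of each ventricle, 72 pairs of members were tested by 100000 permutations of animals within groups (two-sided), and 13 passed an adjusted p of 0.05 for Pearson's r. All 13 also passed for Spearman's rho and kept their sign without the 2 animals farthest from the median of the first gene. The group means were not taken again after those 2 were left out. Their values thus still shift the rest of their group, so this does not give the correlation free of them. Of these pairs 5 were in the RV and 8 in the LV, and 11 were positive.

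The enzymes formed the pairs found in both ventricles. Asns and Mthfd2 had r = 0.680 and rho = 0.635 in the RV (permutation p = 3e-05 and 0.0001, adjusted 0.00108 and 0.0036), and r = 0.757 and rho = 0.576 in the LV (permutation p = 0.00045 and 0.00092, adjusted 0.0054 and 0.00946). Without the 2 farthest animals r was 0.591 in the RV and 0.548 in the LV. In the LV these were AOB-F animals 6 and 7. In the RV they were AOB-F animal 6 and the AOB-F animal with the lowest Asns (2.94), so that animal 7 remained in the RV value. Asns and Phgdh had r = 0.541 and rho = 0.575 in the RV (permutation p = 0.0009 and 0.00028, adjusted 0.009 and 0.00461) and r = 0.604 and rho = 0.516 in the LV (permutation p = 0.001 and 0.00121, adjusted 0.009 and 0.0109). Without the same animals of each ventricle r was 0.573 and 0.440.

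A second set of pairs held Trib3 and Sesn2 in the LV. Trib3 and Sesn2 had r = 0.756 and rho = 0.679 there (permutation p = 1e-05 for both, the smallest that these permutations can give, adjusted 0.00072), and r was 0.705 without the farthest animals. Within their LV groups, AOB-H replicate 6, Sham-H replicate 4 and PAB-H replicate 2 were highest for both genes. They also had the highest endothelial shares (0.501, 0.234 and 0.211%). LV PAB-F replicate 5 was lowest for both genes and for this share (0.156%). LV Sham-F replicate 7, the highest for Trib3, had 0.170%, below the group median of 0.217%. The part of cell composition in this pair was not tested. Sesn2 and Phgdh had r = 0.559 and rho = 0.578 in the LV (permutation p = 0.00021 and 0.00032, adjusted 0.00374 and 0.00461, 0.519 without 2 animals). Atf4 and Ddit3 were correlated in the RV, with r = 0.611 and rho = 0.565 (permutation p = 0.00012 and 0.00076, adjusted 0.00288 and 0.00912), and 0.512 without 2 Sham-H animals. The remaining called pairs were Psat1 with Mthfd2 in the RV (r = 0.458) and, in the LV, Phgdh with Mthfd2 (0.635), Trib3 with Phgdh (0.478) and Atf4 with Sesn2 (0.448), with adjusted permutation p-values of 0.019, 0.00374, 0.0209 and 0.0281. Atf4 and Trib3 in the LV passed by rho (0.454, permutation p = 0.00543, adjusted 0.0301) and not by r (0.426, permutation p = 0.0175, adjusted 0.084). Atf4 was in no called pair with Asns, Mthfd2, Phgdh, Psat1, Trib3 or Gdf15, and Gdf15 in none at all. The negative pairs were Ddit3 with Phgdh in the RV (r = -0.500 and rho = -0.498, permutation p = 0.00235 and 0.00266, adjusted 0.0169 and 0.0213, -0.452 without 2 animals) and Ddit3 with Psat1 in the LV (r = -0.502 and rho = -0.467, permutation p = 0.00223 and 0.00487, adjusted 0.0169 and 0.0292, -0.395 without 2 animals).

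Across all 82 libraries, group differences included, the genes most like each member by Pearson's r of library-scaled log2 counts were described with no test, since the libraries share groups and animals. Atf4 was most like Trib1 (r = 0.729) and the immediate early gene Fos (0.723). For Ddit3 they were Pdp2 (0.859) and Gpcpd1 (0.839), for Trib3 Mob3a (0.849) and Itpkc (0.824), and for Sesn2 Plekhg2 (0.944) and Tbc1d10a (0.935). Asns was most like Reg3b (0.779), Paqr8 (0.773) and Mthfd2 (0.755), the single case of a member among the 3 nearest genes of another. Mthfd2 was nearest to Tlr2 (0.791), Phgdh to Fermt3 (0.850) and Psat1 to Gas7 (0.548). Gdf15 was nearest to Tln1 (0.848) and to Nppb (0.843), which encodes B-type natriuretic peptide.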

How the data were processed

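The authors isolated cardiomyocytes, depleted ribosomal RNA, trimmed the reads with Trim Galore, aligned them to the Rnor6.0 build with STAR and counted them per gene with featureCounts. The deposited table of 17337 genes holds raw counts, normalized counts (a signal value made by the authors with DESeq2 1.28.1) and FPKM values for 82 libraries. All tests here used the deposited raw counts, and the FPKM values of the authors served only to compare levels between genes. In R 4.3.3, edgeR 4.0.16 fitted 1 quasi-likelihood model with a mean per group over 82 libraries (TMM factors, filterByExpr, 11954 genes), and contrasts were called at a Benjamini-Hochberg adjusted p under 0.05. Males were compared with females in a fit per ventricle. Normalized counts in the text are raw counts over the TMM effective library size, times its mean (13279120).

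The members and the lists of pathway genes and cell markers were chosen with earlier results of these data known. All members are named, of each pathway list at most 3 called genes with the largest change per comparison, and the 3 genes most like each member. Others, and the AOB-F animals 6 and 7, were singled out after their values were seen. Of 77 listed pathway genes 71 were tested; Eif2s3 and Dele1 were matched by gene identifier to the symbols Eif2s3x and RGD735029. Promoter windows are RefSeq's (GRCr8), and other coordinates were not used since the builds differ.

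The labels give the animal of each library, and an RV and an LV library that share a number share the rat. Deviations of such pairs from their group means had a median r of 0.186 to 0.297 per condition, with 1 pair of PAB-H at -0.141, against -0.069 to -0.014 for different rats. Tested on simulated counts in which 200 genes differed by 1.5 (log2), the fit found 187 of them for the failing RV (RV PAB-F, 11755 genes) and 189 for the failing LV (LV AOB-F, 11783 genes), beside 12 and 8 false calls. The simulated spread followed abundance alone, with no other group differences and no outlying animals. These rates therefore do not cover genes with a wider spread or with such animals. Alternative settings were RLE factors, all genes with a count, DESeq2 1.42.0, a fit to the groups compared, sex as a covariate, a replicate block, a gene length offset, the study's criteria (a change above 1 on the log2 scale, p of at most 0.01 and a mean count above 50), and leaving out each library.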

Additional observations from a re-analysis of the deposited data

Results flagged for a closer look

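In 108 tests of the highest and lowest library of a group, 5 values stood far from the rest of their group, where chance gives about 5.4. They were Trib3 in RV Sham-F replicate 9 (7.42, the lowest), Trib3 in LV Sham-H replicate 4 (86.9), Phgdh in LV PAB-H replicate 2 (17.3), Mthfd2 in LV AOB-H replicate 2 (15.5, the lowest) and Gdf15 in LV Sham-F replicate 5 (90.0, the lowest). All are normalized counts. The high Asns and Mthfd2 values of AOB-F animals 6 and 7 are not among them, since a pair of high values hides from a test of a single one.

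The stage difference in sham rats, Sham-F minus Sham-H, differed between the ventricles for Trib3 (-1.35, RV minus LV) and Sesn2 (-0.78) by the test of the difference itself. The differences were 1.19 and 0.83 in the LV and -0.15 and 0.05 in the RV. In the same comparison 41.6% of all genes were called.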

How the results depend on the processing

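Over all alternatives other than leaving out single libraries, the number of members called stayed within 1.5 times in 114 of 130 checks. These include checks in which neither the main fit nor the alternative called a member, so that no call could be lost. In the remaining checks the count moved by more than 1.5 times in 7, no call was left in 8, and calls appeared in 1 where the main fit had none. No called difference turned its direction under any alternative. Depth limited Psat1 and Fgf21 most, with at most 24 and 10 raw counts per library, and Asns and Phgdh in the RV, so that differences of these genes were detectable only when large.

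For RV PAB-F 1 member was called by the study's criteria and 1 to 3 without single libraries; all genes called numbered 1325, 2726 with only the groups compared and 358 without PAB-F replicate 1. For LV AOB-F none was called when only the groups compared were fitted (15 genes in all, against 1541), none with both AOB-F animals 6 and 7 left out, an alternative chosen after seeing the data (344 genes), and 2 to 4 without single libraries. For RV PAB-H none was called without the filter (Psat1 1.82, adjusted p = 0.0561), none with sex as a covariate (1.80, adjusted p = 0.0502), none with only the groups compared, and 0 to 1 without single libraries. By the study's criteria 3 members were called between the ventricles of Sham-F, 1 between those of Sham-H and 1 between the LV stages, since these criteria ask for a change above 1 and a mean count above 50. Without single libraries the counts were 1 to 2 in Sham-H, 2 to 4 for the LV stages, 0 to 1 for the PAB response between ventricles and 2 to 3 for the stage difference between ventricles. Between males and females in the LV 0 were called without the filter (Atf4 -0.27, adjusted p = 0.0589), 2 with the length offset and 3 by DESeq2. The cause of these changes was not tested.

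Banded and sham rats of the same replicate number are different animals, and not every pair of equal number was correlated (median r of -0.081 to 0.16 per comparison). Males were numbered before females in each condition. At failure, banded and sham rats of equal number were therefore also of the same sex, and a block by number takes up sex as well. With the number as a block, 1 member was called for RV PAB-F (Atf4 -0.52, adjusted p = 0.0254, whereas Gdf15 had 1.58, adjusted p = 0.051), 0 for LV AOB-F (1 gene in all; Asns 1.53, adjusted p = 0.395, and Mthfd2 1.07, adjusted p = 0.402) and 0 for RV PAB-H (1256 genes in all, against 538). With the animal as a block, 1 member was called for the PAB response between ventricles, and the counts of members between the ventricles stayed within 1.5 times.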
